A study of Mus musculus with 7 samples.

Results

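The genes described here set the pace of the cell cycle in its first gap phase: the transcription factor Myc, the serine/threonine kinases Pim1 and Pim2, the D-type cyclins Ccnd2 and Ccnd3, their kinases Cdk4 and Cdk6, and the inhibitors Cdkn1a (p21) and Cdkn1b (p27). They are 9 of the 18193 genes that an array probe set names alone, and 24 probe sets of the array annotation carry their names. The set of 9 was put together with earlier results of these data known. Where several probe sets name a gene, the one with the highest mean over all arrays is its main value and the others are given beside it. All 9 genes, and all 24 probe sets, were bright enough to be tested. Values are log2(intensity + 1), and differences are on that scale.

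Each array measured CD4+ T cells sorted out of the peripheral lymph nodes. All mice were male and 3 weeks old. Sf.Il2-/- mice carry the scurfy Foxp3 mutation together with the null allele of B6.129P2-Il2tm1Hor/J (3 arrays). Sf mice (B6.Cg-Foxp3sf/J) carry the Foxp3 mutation alone (3 arrays). B6 mice are the C57BL/6 wild type, with 1 array from the lymph nodes of 2 mice. Cells positive for B220, CD8, CD11b, CD11c or NK1.1 were depleted, and the remainder was sorted for CD3 and CD4. Foxp3 is needed in regulatory T cells, so both mutants lack their function, and the Foxp3 mutation is shared by every array except that of B6. The sorted cells mix resting and activated T cells, and in such bulk RNA fewer cells that express a gene cannot be told apart from less RNA of it per cell.

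In a resting T cell the D-type cyclins are scarce or inactive and Cdkn1b holds cyclin-dependent kinases in check. Antigen and growth factors such as interleukin-2 induce Myc and the D-type cyclins. Cyclin D with Cdk4 or Cdk6 then phosphorylates the retinoblastoma protein, which frees E2F factors to switch on the genes of DNA replication. Interleukin-2 signals in part through STAT5, of which Pim1 is a well-known target. Pim kinases favour survival and protein synthesis and can phosphorylate the inhibitors of cyclin-dependent kinases.

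Some arrays stood apart in ways the labels do not name. By correlation over 14762 dim probe sets, Sf 3, Sf.Il2-/- 3 and B6 formed 1 array set (set 2) and the other 4 arrays another (set 1), although the lowest correlation within sets (0.553) and the highest between them (0.554) overlap. Upper quartiles of intensity were 130 to 145 in set 2 and 115 to 116 in Sf.Il2-/- 1 and 2, with 110 and 116 in Sf 2 and 1. The summed intensity of 7 CD4 T cell markers was 14500 to 17200 in Sf.Il2-/-, 8790 to 13400 in Sf and 18000 in B6. Cd3d lay between 11.20 and 11.75 in every array, while Cd4 read 10.26, 10.46 and 11.07 in Sf.Il2-/-, 9.72, 9.44 and 10.71 in Sf, and 11.27 in B6. The median difference of the 7 markers was 0.56 in Sf.Il2-/- against Sf. Against B6 it was -0.28 in Sf.Il2-/- and -0.91 in Sf. Of the other cell types, 5 neutrophil markers summed to 559 in Sf.Il2-/- 2 and 332 in Sf 1, against 151 to 215 in the other 5 arrays. The 5 B cell markers summed to 1910 to 2160 in Sf.Il2-/-, 961 to 1760 in Sf and 3060 in B6, mostly from Ighm, while Cd79a, Cd79b and Ms4a1 stayed at or under 5.30 and Pax5 lay between 4.84 and 6.06. Of 3 NK cell markers Ncr1 and Klra8 were under 4 in every array, and Eomes, which T cells can also express, took the sum to 468 to 970 in Sf.Il2-/-, 178 to 360 in Sf and 136 in B6. The 2 CD8 T cell markers summed to 151 to 201 in Sf.Il2-/-, 146 to 201 in Sf and 312 in B6. For 5 macrophage and monocyte markers the sums were 401 to 930, 465 to 770 and 750, with Csf1r between 8.36 and 9.49 in every array. In the same order, 4 plasma cell markers summed to 269 to 346, 263 to 441 and 205. Sums of 5 dendritic cell markers were 93.4 to 142, 93.2 to 112 and 80.2, and of 2 erythroid markers 7.28 to 20.5, 14.4 to 18 and 56.8. The part of these transcripts in the results was not tested.

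Of the 9 genes, Cdkn1a rose in Sf against B6, Ccnd2 fell in Sf.Il2-/- against B6, and none passed the test between Sf.Il2-/- and Sf. The test is limma's, with p adjusted over the 11460 genes bright enough to be tested and a threshold of 0.05. In Sf.Il2-/- against Sf, 0 of the 9 rose and 0 fell, where 0.0436% of all genes rose and 0.236% fell. An unadjusted limma p under 0.05 was reached by 2 of the 9, Pim1 and Cdkn1a, and by 908 of all genes. The Sf.Il2-/- arrays lay entirely below the Sf arrays for these 2 genes and entirely above them for 0, against 3.72% of all genes below and 8.39% above. In Sf against B6, 1 of the 9 rose and 0 fell (all genes: 1.31% rose and 1.16% fell). In Sf.Il2-/- against B6, 0 rose and 1 fell (all genes: 1.49% and 1.2%).

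Many genes separated the mutant arrays from the single B6 array. The 3 Sf arrays lay above B6 for 3 of the 9 genes and below it for 3, and over all genes for 19.6% and 46.9%. The 3 Sf.Il2-/- arrays lay above B6 for 4 and below it for 4, and over all genes for 24.7% and 44.5%. Separation from B6 is therefore not a result about these genes. The median difference over the 9 genes was -0.18 in Sf.Il2-/- against Sf, 0.01 in Sf against B6 and 0.04 in Sf.Il2-/- against B6, beside 0.08, -0.25 and -0.14 over all genes tested. Quantile normalization of the arrays moved the all-gene medians to 0.03, 0.02 and 0.06, so differences from B6 are also given minus the all-gene median.

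**Figure D1:**
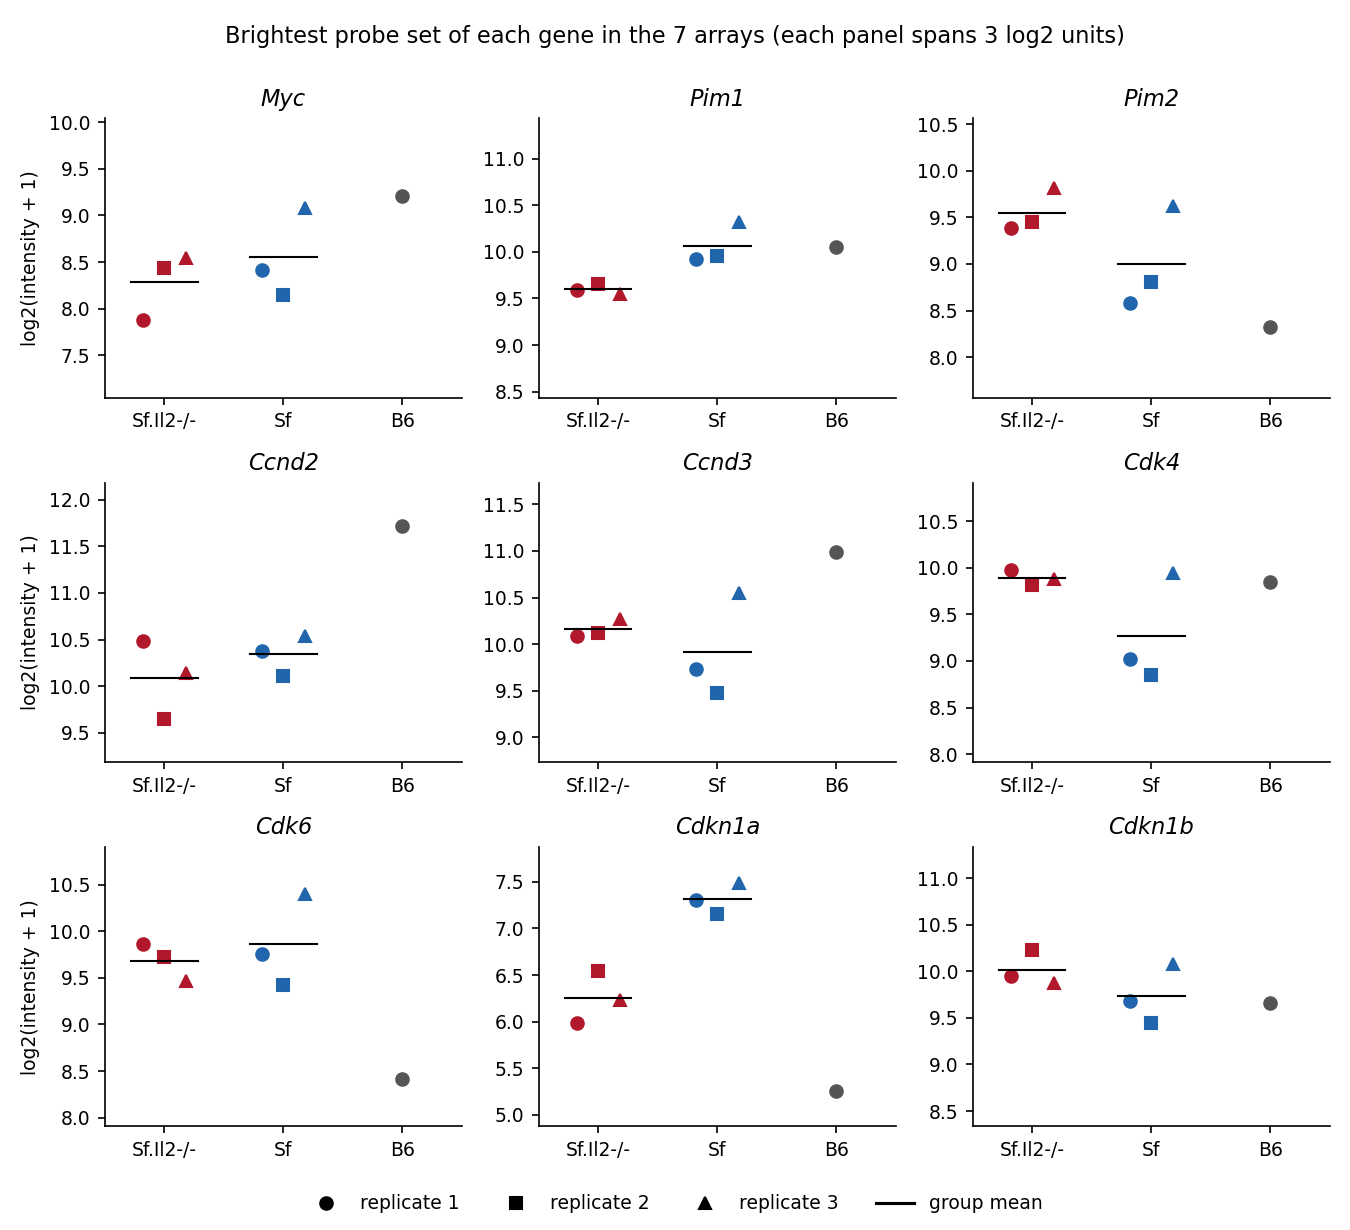
Level of the brightest probe set of each of the 9 genes, as log2(intensity + 1), in Sf.Il2-/-, Sf and B6, with 1 point per array and a line at the mean of the 3 arrays of a mutant group. Cdkn1a has its Sf.Il2-/- arrays between 5.99 and 6.54, its Sf arrays between 7.16 and 7.49 and B6 at 5.26, and Ccnd2 has all mutant arrays at or below 10.54 and B6 at 11.72.

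Myc, which drives growth and metabolism ahead of division, had its lowest value in a Sf.Il2-/- array and its highest in B6. Its only probe set (1424942_a_at) read 7.88, 8.44 and 8.54 in Sf.Il2-/-, 8.42, 8.15 and 9.08 in Sf, and 9.21 in B6. All 6 mutant arrays were below B6, while the 2 mutant groups overlapped and Sf 3 came close to B6. Of all genes, 44.5% lay wholly below B6 in Sf.Il2-/- and 46.9% in Sf. The difference was -0.26 ± 0.29 in Sf.Il2-/- against Sf (SE, n = 3 and 3; limma adjusted p = 0.907), with a 95% interval from -0.91 to 0.38. Against B6 it was -0.92 ± 0.41 in Sf.Il2-/- (adjusted p = 0.265) and -0.66 ± 0.41 in Sf (adjusted p = 0.35), or -0.78 and -0.41 minus the all-gene median. Without Sf 3 the difference of Sf from B6 was -0.93 and passed (adjusted p = 0.0458). That setting called 30% of all genes in Sf against B6, 13.1% in Sf.Il2-/- against B6 and 7.43% in Sf.Il2-/- against Sf. Calls made without Sf 3, here and below, are therefore not particular to these genes. Between Sf 3 and B6, which share an array set, the difference was -0.13.

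The Pim kinases Pim1 and Pim2 are constitutively active once made, so their activity follows their amount. Pim1 was the lower in Sf.Il2-/- at both of its probe sets. The main one (1435458_at) read 9.59, 9.66 and 9.55 in Sf.Il2-/-, 9.92, 9.95 and 10.32 in Sf, and 10.05 in B6. The other read 7.64, 7.78 and 7.81 in Sf.Il2-/-, 8.35, 8.41 and 8.14 in Sf, and 8.88 in B6. At both, every Sf.Il2-/- array lay below every Sf array and below B6. Among all genes, 3.72% lay wholly below Sf in Sf.Il2-/-, and 44.5% lay wholly below B6. The Sf.Il2-/- arrays were close together, with an SD of 0.06 at the main probe set and 0.09 at the other. The difference of Sf.Il2-/- from Sf was -0.47 ± 0.18 at the main probe set, a 1.38-fold lower level (SE, n = 3 and 3; limma adjusted p = 0.569), with a 95% interval from -0.88 to -0.05. At the other it was -0.56 ± 0.19 (adjusted p = 0.557 over 20617 probe sets). Neither passed. Within array sets 1 and 2 the main probe set differed by -0.31 and -0.77. The probe sets disagreed on Sf against B6, with 0.01 ± 0.26 at the main one and -0.59 ± 0.27 at the other, and under quantile normalization the main one differed by 0.66 (adjusted p = 0.0742). They also differed in size on Sf.Il2-/- against B6. The main one gave -0.45 ± 0.26 (limma adjusted p = 0.392) and the other -1.14 ± 0.27 (limma adjusted p = 0.077), neither past the threshold.

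Pim2 had its highest mean in Sf.Il2-/- and its lowest value in B6. Its probe set (1417216_at) read 9.39, 9.45 and 9.81 in Sf.Il2-/-, 8.58, 8.81 and 9.62 in Sf, and 8.32 in B6. Every mutant array was above B6, and Sf 3 alone of the Sf arrays reached the range of Sf.Il2-/-. Of all genes, 24.7% lay wholly above B6 in Sf.Il2-/- and 19.6% in Sf. Against B6 the difference was 1.23 ± 0.40 in Sf.Il2-/-, 2.34-fold (adjusted p = 0.156), and 0.68 ± 0.40 in Sf (adjusted p = 0.33), or 1.37 and 0.93 minus the all-gene median. Sf.Il2-/- differed from Sf by 0.55 ± 0.28 (adjusted p = 0.718), with a 95% interval from -0.09 to 1.18. None of these passed in the fit to the values as deposited. Sf.Il2-/- against B6 passed after quantile normalization (1.46, adjusted p = 0.0179) and with the array set as a block (1.67, adjusted p = 0.0121). Without Sf 3, Pim2 was past the threshold in Sf.Il2-/- against Sf (0.86, adjusted p = 0.0321) and against B6 (adjusted p = 0.0121), as were 7.43% and 13.1% of all genes. Array set 1 alone gave 0.73 for Sf.Il2-/- against Sf (adjusted p = 0.0461), and the set block gave 1.12 for Sf against B6 (adjusted p = 0.0497).

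Ccnd2 is the D-type cyclin that growth factors induce most strongly in lymphocytes, and here it was lower in the mutants. Its main probe set (1416122_at) read 10.48, 9.65 and 10.14 in Sf.Il2-/-, 10.38, 10.11 and 10.54 in Sf, and 11.72 in B6. The 2 mutant groups overlapped, and the highest mutant array was more than 1 log2 unit below B6. In Sf.Il2-/- Ccnd2 fell by 1.63 ± 0.33 against B6 (SE, n = 3 and 1; adjusted p = 0.0352), 3.09-fold. In Sf the difference was -1.37 ± 0.33 (adjusted p = 0.0606), 2.59-fold, which missed the threshold. Minus the all-gene median these were -1.49 and -1.12. Between Sf.Il2-/- and Sf the difference was -0.25 ± 0.23 (adjusted p = 0.882), with a 95% interval from -0.77 to 0.26.

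The 7 probe sets of Ccnd2 gave the same order against B6. At all 7, every array of both mutants lay below B6, with differences from -2.08 to -1.19 in Sf.Il2-/- and from -1.63 to -0.93 in Sf. Such separation was common, with 44.5% of all genes wholly below B6 in Sf.Il2-/- and 46.9% in Sf. In a fit over all 20617 probe sets, 5 of the 7 fell in Sf.Il2-/- against B6 (0.781% of all probe sets fell and 0.917% rose). In Sf against B6, 3 of the 7 fell (0.703% of all fell and 0.805% rose). Of the 3, the one with the largest difference (1448229_s_at) read 8.34, 8.11 and 8.63 in Sf.Il2-/-, 9.16, 8.58 and 8.68 in Sf, and 10.44 in B6. Probe sets of 1 gene measure the same RNA and are not replicates. Between Sf.Il2-/- and Sf all 7 differences were negative, between -0.45 and -0.25, and 0 passed (0.102% of all probe sets fell and 0.0097% rose, and 4 of the 24 probe sets had an unadjusted p under 0.05).

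The calls of Ccnd2 depended on the arrays and settings of the fit. With all 7 arrays the fall in Sf.Il2-/- missed the threshold with no filter on dim genes (adjusted p = 0.0691) and without the intensity trend (adjusted p = 0.0595). The adjusted p was 0.0574 without Sf 1. The fall also missed the threshold without Sf.Il2-/- 2 (-1.41, adjusted p = 0.0666), without both arrays with most neutrophil transcripts (adjusted p = 0.0765) and without Sf.Il2-/- 3 (adjusted p = 0.0748). In Sf, Ccnd2 was past the threshold without Sf 3 (-1.47, adjusted p = 0.0103), without Sf.Il2-/- 2 (adjusted p = 0.0466), with arrays centred on their medians (-1.44, adjusted p = 0.0482) and with the replicate numbers as a block (-1.16, adjusted p = 0.0318). Of all genes, 30% passed in that comparison without Sf 3 and 16.4% with the replicate block. After quantile normalization Ccnd2 was at -0.79 (adjusted p = 0.117). Within array set 2 the Sf.Il2-/- array was at -1.57 and the Sf array at -1.17 from B6.

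Ccnd3, the D-type cyclin that developing and mature T cells use most, was also lower in every mutant array than in B6. Over all genes 44.5% lay wholly below B6 in Sf.Il2-/- and 46.9% in Sf. The main probe set of Ccnd3 (1415907_at) read 10.09, 10.12 and 10.27 in Sf.Il2-/-, 9.73, 9.48 and 10.55 in Sf, and 10.99 in B6. The Sf arrays were spread over more than the whole range of Sf.Il2-/-, with Sf 3 the highest of the mutants. The difference from B6 was -0.83 ± 0.37 in Sf.Il2-/- (adjusted p = 0.268) and -1.07 ± 0.37 in Sf (adjusted p = 0.142), or -0.69 and -0.82 minus the all-gene median. All 3 probe sets were below B6 in every mutant array, with differences from -1.40 to -0.66 in Sf.Il2-/- and from -1.07 to -0.50 in Sf, and 0 passed. With the replicate numbers as a block Ccnd3 passed in Sf (-1.20, adjusted p = 0.043). It also passed without Sf 3, in Sf (-1.39, adjusted p = 0.00355) and in Sf.Il2-/- (adjusted p = 0.0229), where 30% and 13.1% of all genes passed. After quantile normalization the difference in Sf was -0.43. Between Sf.Il2-/- and Sf the probe sets differed in sign, from -0.55 to 0.24.

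The kinases that pair with these cyclins did not share a pattern. Cdk6 read higher in every mutant array than in B6. Over all genes 24.7% lay wholly above B6 in Sf.Il2-/- and 19.6% in Sf. The main probe set of Cdk6 (1435338_at) read 9.86, 9.72 and 9.47 in Sf.Il2-/-, 9.76, 9.42 and 10.40 in Sf, and 8.41 in B6. The mutant groups overlapped, with a difference between them of -0.18 ± 0.26 (adjusted p = 0.944). Against B6 the difference was 1.28 ± 0.37 in Sf.Il2-/-, 2.42-fold (adjusted p = 0.118), and 1.45 ± 0.37 in Sf, 2.74-fold (adjusted p = 0.0722), or 1.42 and 1.70 minus the all-gene median. Neither passed, and the other 2 probe sets gave smaller differences, of 0.79 and 0.86 in Sf.Il2-/- and 0.99 and 0.90 in Sf. The second of them was bright enough to be tested in the mutants alone, with B6 at 4.91.

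Cdk6 passed in both mutants after quantile normalization, at 1.49 in Sf.Il2-/- (adjusted p = 0.0107) and 1.95 in Sf (adjusted p = 0.00325), and without Sf 3, at 1.28 in Sf.Il2-/- (adjusted p = 0.0101) and 1.18 in Sf (adjusted p = 0.0105). In Sf it also passed without Sf 2 (1.67, adjusted p = 0.041), with the replicate numbers as a block (1.49, adjusted p = 0.0404) and with the array set as a block (1.62, adjusted p = 0.0499). Over the 17 settings tried, the difference of Cdk6 in Sf lay between 1.11 and 1.95. Without Sf 3, 13.1% of all genes passed in Sf.Il2-/- against B6 and 30% in Sf. After quantile normalization 6.39% and 4.79% passed.

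Cdk4 separated Sf 1 and Sf 2 from the other arrays more than it separated the groups. Its main probe set (1422441_x_at) read 9.98, 9.81 and 9.88 in Sf.Il2-/-, 9.02, 8.85 and 9.94 in Sf, and 9.85 in B6. The 3 Sf.Il2-/- arrays lay close to B6, and Sf 3 lay with them. Sf.Il2-/- differed from Sf by 0.62 ± 0.28 (adjusted p = 0.629). Array set 1 gave 0.96, which passed when fitted alone (adjusted p = 0.0236), and set 2 gave -0.06. Without Sf 3 the difference was 0.96 and passed (adjusted p = 0.0163), as did 7.43% of all genes. Against B6 the differences were 0.04 ± 0.39 in Sf.Il2-/- (adjusted p = 0.967) and -0.58 ± 0.39 in Sf (adjusted p = 0.392). Without Sf 3 the second was -0.91 and passed (adjusted p = 0.0133), as did 30% of all genes. The other 2 probe sets gave 0.43 and 0.36 for Sf.Il2-/- against Sf. Against B6 they gave smaller differences in Sf, of -0.11 and -0.15. In Sf.Il2-/- they gave 0.32 and 0.22, with every array above B6, as for 24.7% of all genes.

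The promoter of Cdk4 is shown because Myc, bound to Max, recognises the E-box CACGTG, and the window of Cdk4 holds several of them. Promoter windows of 7 of the 9 genes, 10 in all, were matched in the RefSeq table of GRCm38.p6, each running from 250 bases before to 50 after a gene start. Myc and Ccnd2 had no window there, so their promoters were not searched. The window of Cdk4 (chr10:127063285-127063584, + strand) holds 4 E-boxes, at -172, -118, -98 and -11 from the start site. Of all 32851 windows 7.15% hold at least 1, and 8 windows (0.0244%) hold 4 or more. The window of Cdk6 (chr5:3343643-3343942, + strand) holds 1, at -220. The second window of Pim1 (chr17:29492835-29493134, + strand) holds 1 E-box at -58 and, at -70, the forkhead type sequence GTAAACA, which 3.65% of all windows hold on either strand. Capitals mark these matches, searched on both strands, and the 3 windows read 5′ to 3′ as follows.

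Cdk4: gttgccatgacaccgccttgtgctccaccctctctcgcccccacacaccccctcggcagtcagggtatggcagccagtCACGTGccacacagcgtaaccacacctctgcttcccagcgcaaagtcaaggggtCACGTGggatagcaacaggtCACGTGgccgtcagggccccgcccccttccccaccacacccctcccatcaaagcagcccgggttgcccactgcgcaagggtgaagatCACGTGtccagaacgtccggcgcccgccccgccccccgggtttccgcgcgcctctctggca
Cdk6: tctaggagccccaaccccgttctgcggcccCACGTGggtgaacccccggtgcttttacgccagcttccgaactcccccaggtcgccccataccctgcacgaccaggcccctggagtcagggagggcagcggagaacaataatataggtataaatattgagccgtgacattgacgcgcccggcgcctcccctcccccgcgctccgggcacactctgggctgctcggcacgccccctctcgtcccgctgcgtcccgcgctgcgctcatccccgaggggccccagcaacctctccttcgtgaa
Pim1: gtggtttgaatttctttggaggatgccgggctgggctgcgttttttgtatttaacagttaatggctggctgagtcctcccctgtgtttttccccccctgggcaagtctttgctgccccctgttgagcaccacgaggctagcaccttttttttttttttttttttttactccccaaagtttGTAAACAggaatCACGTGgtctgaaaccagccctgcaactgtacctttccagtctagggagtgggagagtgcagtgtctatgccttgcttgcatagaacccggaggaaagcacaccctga

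The first window of Ccnd3 holds GTAAACA on the opposite strand at -243. None of the 10 windows, which do not include Myc or Ccnd2, holds the STAT type sequence TTCNNNGAA, found in 8.3% of all windows. A match here describes the letters and not binding, and no match covers only these letters in these windows. Max, the partner that Myc needs to bind an E-box, read 6.98, 7.18 and 7.61 in Sf.Il2-/-, 6.93, 6.71 and 6.71 in Sf, and 8.46 in B6. Foxo1, a forkhead factor, read 9.20, 9.36 and 9.75 in Sf.Il2-/-, 9.28, 9.18 and 9.60 in Sf, and 11.28 in B6. Both were lower than B6 in every mutant array. So were 44.5% of all genes in every Sf.Il2-/- array and 46.9% in every Sf array. A link of either factor to these windows was not tested.

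Cdkn1a was the member with the clearest order of groups, highest in Sf, lower in Sf.Il2-/- and lowest in B6. It encodes p21, which binds and restrains cyclin-dependent kinases and is induced by p53 and by several growth signals. Its main probe set (1424638_at) read 5.99, 6.54 and 6.23 in Sf.Il2-/-, 7.31, 7.16 and 7.49 in Sf, and 5.26 in B6. Its other probe set read 4.42, 4.73 and 4.66 in Sf.Il2-/-, 5.56, 5.73 and 6.11 in Sf, and 3.56 in B6, and was bright enough to be tested through Sf alone. At the main probe set no array of one group overlapped another group. Among all genes, 3.72% lay wholly below Sf in Sf.Il2-/-. Against B6, 24.7% lay wholly above it in Sf.Il2-/- and 19.6% in Sf.

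Cdkn1a rose in Sf by 2.06 ± 0.30 against B6 (SE, n = 3 and 1; adjusted p = 0.0111), 4.16-fold, and by 2.31 minus the all-gene median. In the fit over probe sets 2 of the 24 rose, both of Cdkn1a, but the dimmer one passed the filter only through Sf and its call is no further support. The rise at the main probe set passed under all 17 settings tried for this comparison, with differences from 1.71 to 2.15 and adjusted p from 0.00347 to 0.0322, and it was 2.22 between Sf 3 and B6, within 1 array set. In Sf.Il2-/- the difference from B6 was 0.99 ± 0.30, 1.98-fold (adjusted p = 0.132), and it passed when Sf 3 was left out (adjusted p = 0.0405), as did 13.1% of all genes.

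The direct comparison of Sf.Il2-/- with Sf gave -1.07 ± 0.21 for Cdkn1a, a 2.10-fold lower level (SE, n = 3 and 3; limma adjusted p = 0.122), with a 95% interval from -1.54 to -0.59. It did not pass over all genes. Within array sets 1 and 2 the main probe set differed by -0.97 and -1.26. It passed without Sf 3 (-0.98, adjusted p = 0.0315), with the array set as a block (adjusted p = 0.0442) and in array set 1 alone (adjusted p = 0.0402). Of all genes, 7.43%, 0.646% and 5.11% passed under these settings, in that order. Without Sf 1 and Sf.Il2-/- 2, the arrays with most neutrophil transcripts, Cdkn1a was at -1.22 (adjusted p = 0.342).

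Cdkn1b encodes p27, the inhibitor that marks resting T cells and is mainly controlled by protein degradation. Its main probe set (1434045_at) read 9.95, 10.23 and 9.87 in Sf.Il2-/-, 9.68, 9.44 and 10.08 in Sf, and 9.66 in B6. The Sf arrays overlapped both other groups, and the Sf.Il2-/- arrays lay above B6, as they did for 24.7% of all genes. Differences were 0.28 ± 0.21 in Sf.Il2-/- against Sf (adjusted p = 0.855, 95% interval from -0.20 to 0.77), 0.36 ± 0.30 in Sf.Il2-/- against B6 and 0.08 ± 0.30 in Sf against B6. The other, dimmer probe set gave -0.23 in Sf.Il2-/- and -0.51 in Sf against B6, opposite in sign. It was bright enough to be tested through B6 alone, which favours negative differences, so it is not weighed against the main probe set.

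**Figure D2:**
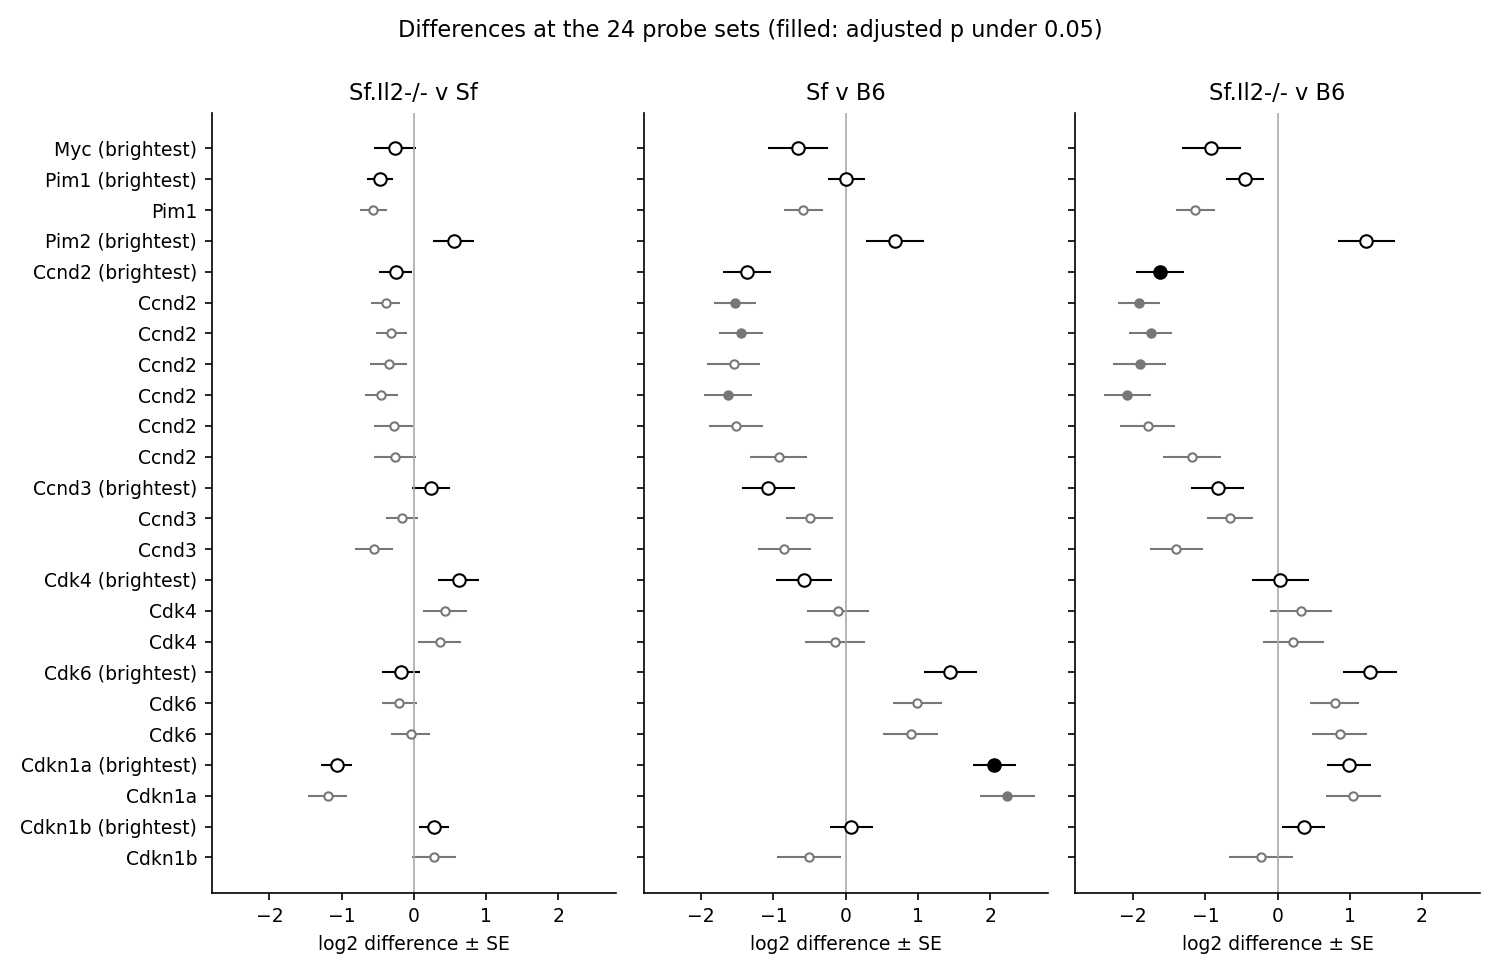
Log2 difference with its SE at each of the 24 probe sets, in the 3 comparisons, with filled points where the adjusted p was under 0.05 and larger black points for the brightest probe set of a gene. In Sf.Il2-/- against B6 all 7 probe sets of Ccnd2 lie between -2.08 and -1.19, and in Sf against B6 both probe sets of Cdkn1a lie at 2.06 and 2.24.

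Fitted with the replicate numbers of the labels as a block, 4 of the 9 genes passed in Sf against B6, with Cdkn1a and Cdk6 higher and Ccnd2 and Ccnd3 lower, where 1 passed without it. Over all genes the block called 16.4% in that comparison (490 higher, 1390 lower), so calls became more frequent throughout. The block gave 0 in Sf.Il2-/- against Sf and 1, Ccnd2, in Sf.Il2-/- against B6. B6 bears the number 1 and has no other array, so whether its number pairs it with the mutants was not tested. The comparisons of the mutants with B6 share that array.

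The genes around these 9 were taken from 9 lists, 98 of whose 107 genes were tested, with the all-gene shares given above for reference. Between Sf.Il2-/- and Sf, 0 genes passed of the G1 cyclin, cyclin-dependent kinase inhibitor, Myc, Pim, p53, quiescence and proliferation lists. Over all genes 0.0436% rose and 0.236% fell in that comparison, so the lack of calls is not a result about these lists. The medians of these 8 lists lay between -0.09 and 0.24. In the list of interleukin-2 receptor and STAT5 feedback genes 3 of 9 fell, Il2ra, Socs2 and Cish, which differed by -4.07, -3.15 and -1.82 (adjusted p = 0.00132, 0.000517 and 0.0277), while the list median was 0.08. Il2ra and Socs2 were under 5 in every Sf.Il2-/- array, so they were bright enough to be tested through Sf and B6 alone. The calls held under 19 of 19 other settings for Il2ra, 18 for Socs2 and 13 for Cish.

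Some proliferation markers rose in the mutants against B6. Of 18 tested, 6 rose and 0 fell in Sf.Il2-/-, and 2 rose and 0 fell in Sf. The mitotic cyclin gene Ccnb2 read 10.26, 9.73 and 9.63 in Sf.Il2-/-, 9.47, 9.18 and 10.08 in Sf, and 7.30 in B6. It rose by 2.57 ± 0.39 in Sf.Il2-/- (adjusted p = 0.0121) and by 2.27 ± 0.39 in Sf (adjusted p = 0.0204). In Sf.Il2-/-, the mitotic kinase gene Cdk1 rose by 2.23, Ccna2, the cyclin of S phase, by 2.13, and Cdc20, an activator of the anaphase-promoting complex, by 2.00 (adjusted p from 0.0462 to 0.0495). In Sf, Rrm2, a subunit of ribonucleotide reductase, rose by 1.81 (adjusted p = 0.0491). Of these calls Ccnb2 passed under all 17 other settings in both mutants. In Sf.Il2-/- 1 of the 18 rose without Sf.Il2-/- 1, without Sf.Il2-/- 2, without Sf.Il2-/- 3, with no filter and without trend, 2 rose without Sf 1, and 12 rose without Sf 3. In Sf 1 rose without Sf 1 or any 1 Sf.Il2-/- array, 7 without Sf 2, 9 without Sf 3 and 11 after quantile normalization. The list median was 1.21 in Sf.Il2-/- and 1.12 in Sf, where all genes had -0.14 and -0.25. Tyms, Pcna and the Mcm genes of the replication licensing complex, members of the list that did not pass, had differences of 0.16, 0.24 and -0.21 to 1.21 in Sf.Il2-/-. Mcm6 had the lowest p of the list in Sf.Il2-/- against Sf, at 0.47 (adjusted p = 0.707).

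Among the other genes of the G1 step few passed the test. Of 15 tested G1 cyclins, kinases and Rb-E2F genes, Cks1b, a partner of the ubiquitin ligase that degrades p27, rose in Sf.Il2-/- by 1.59 ± 0.34 (adjusted p = 0.044), and 0 fell. In Sf 0 of 15 passed and Cks1b was at 1.37 (adjusted p = 0.0677). Ccne2, a cyclin of S phase entry, was at 1.52 ± 0.41 in Sf.Il2-/- (adjusted p = 0.0961) and 1.63 ± 0.41 in Sf (adjusted p = 0.0707), neither past the threshold. The call of Cks1b held under 10 of 17 other settings. The list medians were 0.14 in Sf.Il2-/- and 0.23 in Sf. Of 4 other inhibitors of cyclin-dependent kinases 0 passed in any comparison, and Cdkn2c, which binds Cdk4 and Cdk6, was at 0.88 in Sf.Il2-/- (adjusted p = 0.175) and 1.01 in Sf (adjusted p = 0.107) against B6. Against Sf, Cdkn2b was at -0.56 in Sf.Il2-/- (adjusted p = 0.669), and Tfdp1, the partner of E2F factors, at 0.50 (adjusted p = 0.682).

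Myc partners and targets had 1 call each. Lists share some genes, such as Foxo1. Of 9 partners and antagonists, Max fell by 1.68 ± 0.31 in Sf (adjusted p = 0.025) and was at -1.20 in Sf.Il2-/- (adjusted p = 0.079), both against B6. Mxd4, an antagonist of Myc, was at 0.70 in Sf.Il2-/- against Sf (adjusted p = 0.478). Of 19 Myc target genes, Odc1, the first enzyme of polyamine synthesis, rose in Sf.Il2-/- against B6 by 2.10 ± 0.36 (adjusted p = 0.0201). It read 10.56, 10.91 and 10.75 in Sf.Il2-/-, 9.26, 9.43 and 10.21 in Sf, and 8.64 in B6, with no overlap between groups, and was at 1.11 in Sf.Il2-/- against Sf (adjusted p = 0.197). For all genes the shares wholly above were 8.39% in Sf.Il2-/- against Sf, and 24.7% and 19.6% in Sf.Il2-/- and Sf against B6. In Sf against B6 0 of the 19 passed, with Ppan, a ribosome assembly factor, at -1.20 (adjusted p = 0.12). The list median was -0.22 in Sf.Il2-/- and -0.45 in Sf, against B6.

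Among 7 genes of the Pim family and its substrates, Foxo1 fell by 1.84 ± 0.30 in Sf.Il2-/- (adjusted p = 0.0176) and fell by 1.93 ± 0.30 in Sf (adjusted p = 0.0153) against B6. Pim3 was at -0.99 in Sf.Il2-/- against Sf (adjusted p = 0.43). It read 6.79, 6.66 and 7.43 in Sf.Il2-/-, 7.82, 8.56 and 7.47 in Sf, and 7.51 in B6, and the mutant groups nearly met at Sf 3 and Sf.Il2-/- 3. Of 12 quiescence factors 2 fell in each mutant, Foxo1 and Foxp1, a forkhead repressor of T cell activation, which fell by 2.05 ± 0.32 in Sf.Il2-/- (adjusted p = 0.014) and fell by 1.79 ± 0.32 in Sf (adjusted p = 0.024). Their list median was -0.77 in Sf.Il2-/- and -0.93 in Sf. Slfn2, also on that list, was at 0.68 in Sf.Il2-/- against Sf (adjusted p = 0.352).

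Cdkn1a is a p53 target, and of 9 other p53 targets tested 1 passed against B6. This was Phlda3, an inhibitor of the kinase Akt, which rose by 1.51 ± 0.29 in Sf.Il2-/- (adjusted p = 0.0299) and by 1.30 ± 0.29 in Sf (adjusted p = 0.0487), with B6 at 4.95. It was bright enough to be tested in the mutants alone, and its calls held under 10 of 17 other settings in Sf.Il2-/- and 6 of 17 in Sf. The median of that list was -0.14 in Sf.Il2-/- and -0.18 in Sf. Trp53inp1 was at 0.65 in Sf.Il2-/- against Sf (adjusted p = 0.43). Of the interleukin-2 receptor and STAT5 feedback genes, Il2ra and Socs2 also fell in Sf.Il2-/- against B6, by 3.09 and 2.10 (adjusted p = 0.014 and 0.00973), and Socs2 was at 1.05 in Sf (adjusted p = 0.0889). Neither gene was bright enough to be tested through Sf.Il2-/- itself. The median of this list was -0.62 in Sf.Il2-/- and 0.76 in Sf.

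**Figure D3:**
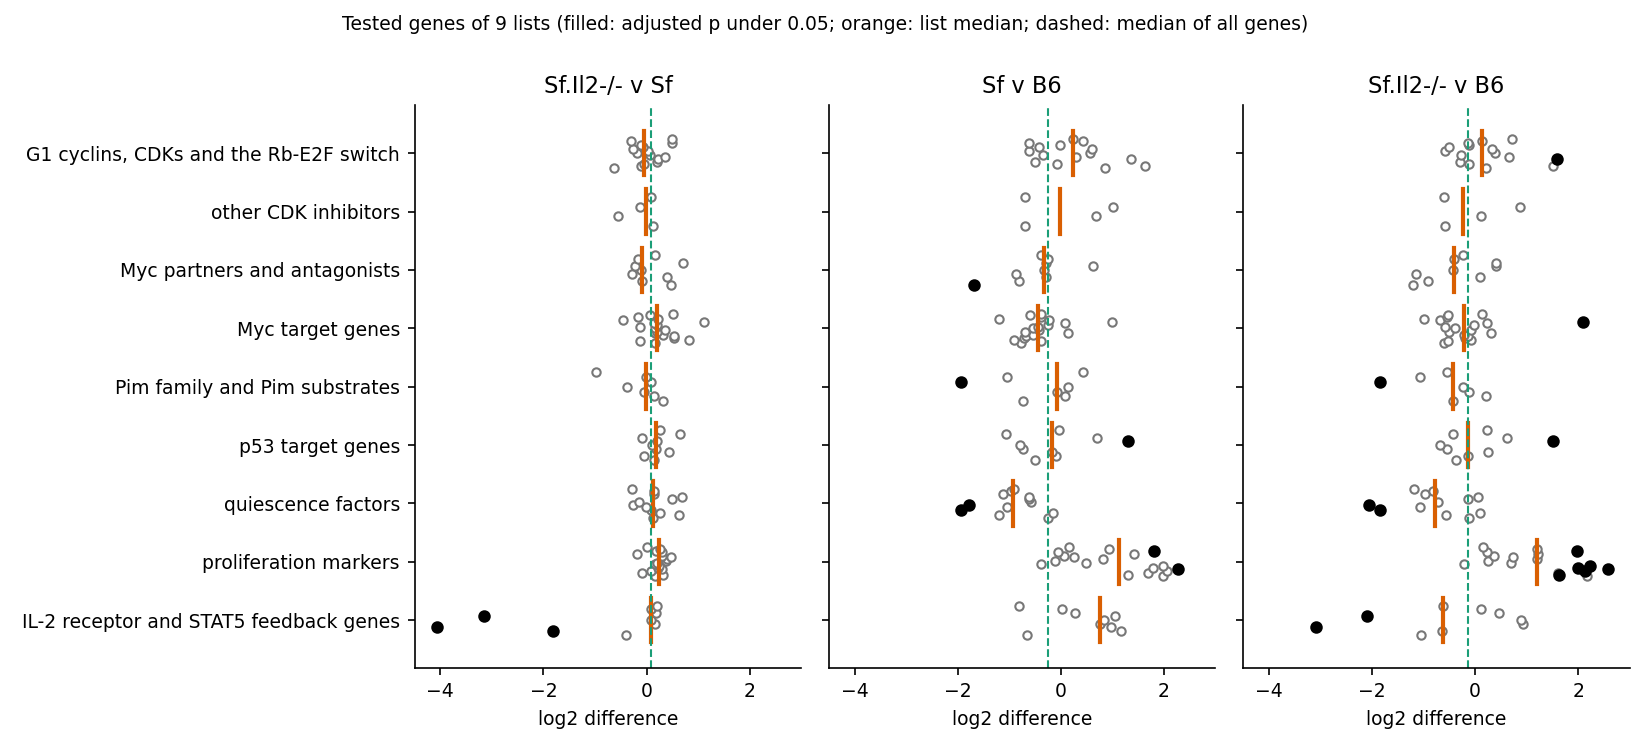
Log2 differences of the tested genes of the 9 lists in the 3 comparisons, with filled points where the adjusted p was under 0.05, an orange bar at the median of the list and a dashed line at the median of all genes tested. Against B6 the proliferation markers have medians of 1.21 in Sf.Il2-/- and 1.12 in Sf, and the quiescence factors -0.77 in Sf.Il2-/- and -0.93 in Sf.

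Genes with the most similar course over the 7 arrays are given as a description. With 7 arrays and 11460 genes close matches arise easily, and the arrays of set 2 share a higher upper quartile. Cdk6 was followed most closely by Ccne2 and Dlgap5, a spindle protein (Pearson r = 0.988 and 0.986). Ccne2 read 7.21, 6.88 and 6.86 in Sf.Il2-/-, 6.86, 6.64 and 7.78 in Sf, and 5.46 in B6, so Sf 3 was highest and B6 lowest, as for Cdk6. Cdkn1a was followed by Ifitm2, an interferon-inducible membrane protein, and Ahr, the aryl hydrocarbon receptor (r = 0.992 and 0.981). Ahr read 6.85, 7.50 and 7.25 in Sf.Il2-/-, 8.73, 8.47 and 8.98 in Sf, and 6.49 in B6.

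The remaining matches were Kctd13 and Lin7c for Myc (0.997 and 0.995), Ksr1 and Dcps for Pim2 (0.994 and 0.992), and Kdm7a and Rasgrf2 for Ccnd2 (0.989 and 0.987). Ccnd3 was followed by Prpf8 and Supt5 (0.998 each), a splicing and a transcription elongation factor, Cdk4 by Metap2 and Vdac3 (0.991 and 0.989), and Cdkn1b by Idh3a and Mettl21a (0.977 and 0.974). The weakest were those of Pim1, A530088E08Rik and Polr1b, a subunit of RNA polymerase I (0.96 and 0.957). Among the 9 genes themselves, Myc and Ccnd3 had the highest correlation (0.797) and Ccnd2 and Cdk6 the lowest (-0.613), and Pim1 and Pim2 were at -0.355, over 7 arrays that differ in group and array set.

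**Figure D4:**
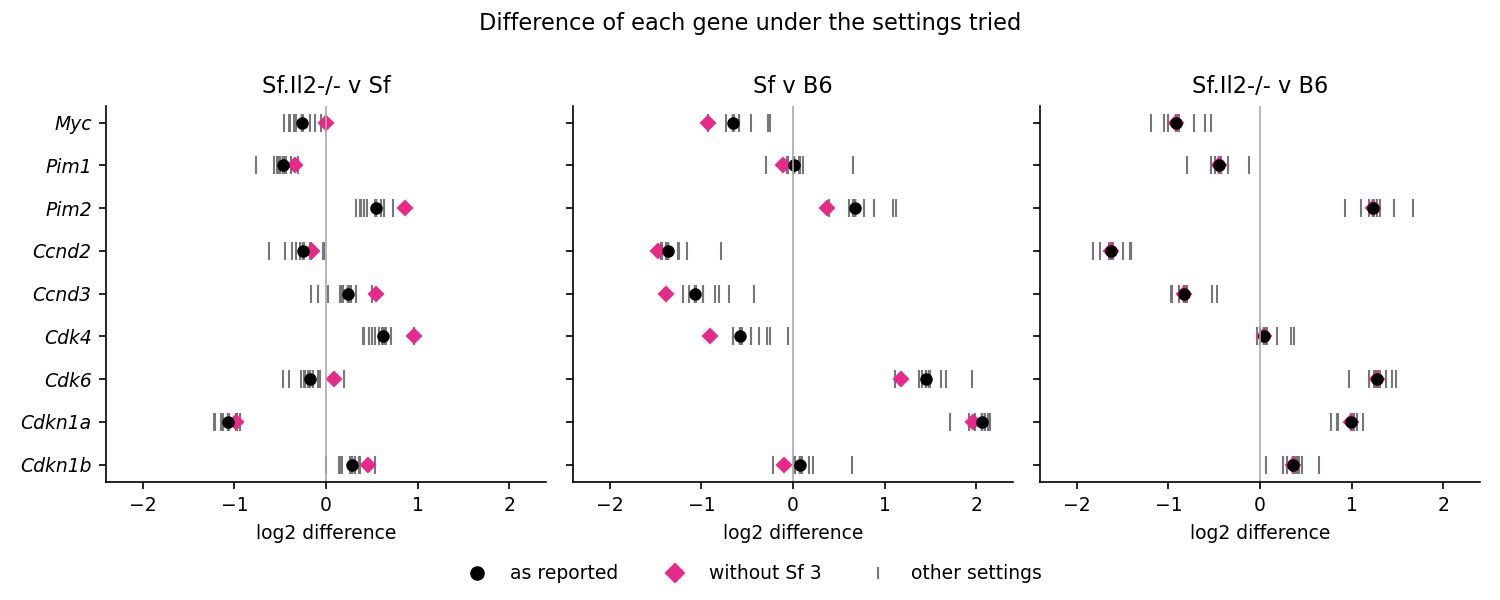
Log2 difference of each of the 9 genes in the 3 comparisons, as reported (black circle), without Sf 3 (pink diamond) and under the other settings tried (grey ticks). The difference of Cdkn1a in Sf against B6 stays between 1.71 and 2.15, while that of Cdk4 in Sf.Il2-/- against Sf goes up to 0.96 without Sf 3.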

How the data were processed

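RNA of 7 sorted CD4+ T cell samples was measured on 1-colour Affymetrix mouse arrays. The authors deposited 1 intensity per probe set, not log-transformed. The programs GCRMA and GCOS appear per the submitters' processing notes; their versions, order and parameters are not given in the sources used here. Of 45037 probe sets, 34945 name 1 gene, 932 several and 9160 none. Symbols were updated through Entrez numbers (34741 probe sets).

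Values were taken as log2(intensity + 1). A gene was tested where its highest group mean was at least 5, which left 11460 genes. Groups were compared in 1 limma 3.58.1 fit over all 7 arrays (R 4.3.3; eBayes with an intensity trend; 4 residual and 9.57 total degrees of freedom), with Benjamini-Hochberg adjustment. The B6 array is assumed to vary like the mutants. A like fit over 20617 probe sets covered the other probe sets. The labels call the arrays biological replicates, and their number limits the precision. The most alike pair of arrays shared the exact value at 0.535% of probe sets. The deviations of same-numbered Sf and Sf.Il2-/- arrays from their group means correlated at 0.301, 0.211 and 0.505. The labels do not state a pairing, and Sf 2 and Sf.Il2-/- 1, whose numbers differ, correlated at 0.333, above 0.301 and 0.211. Same-numbered mutant arrays also shared an array set, so these correlations cannot tell a pairing from the sets. The reported fit did not pair arrays by number, and the numbers served as a block only among the other settings tried. The fit was also run on simulated data with independent noise in each array and the mutants' spread for B6. That run held no array sets, so it cannot speak to them or to the spread of B6.

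The 9 genes and the lists were chosen with earlier results of these data known. Named from a list are up to 4 genes past the threshold with the largest difference, or else the gene with the lowest p, and the 2 closest matches of each of the 9 genes. Marker genes were named for the check of the sort. Tyms, Pcna and the Mcm genes other than Mcm6 were named after their values were seen. Other settings tried were dropping the filter, raising it to 6, quantile normalization, median centring, a pseudocount of 16, no trend, the mean of probe sets, a 2-fold threshold, the replicate block, leaving out each array, and the mutant arrays alone. The array set as a block or alone, and leaving out the arrays with neutrophil transcripts, were chosen after seeing the data. Protein sequences were not used here. Figures were drawn with matplotlib 3.10.9.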

Additional observations from a re-analysis of the deposited data

How the results depend on the processing

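Of the differences of the 9 genes, 159 of 171 values in Sf.Il2-/- against Sf, 133 of 153 in Sf against B6 and 138 of 153 in Sf.Il2-/- against B6 kept their direction and their side of the threshold under the other settings, while 7, 14 and 7 came to pass, 0, 0 and 6 were lost, and 5, 6 and 2 changed sign. The 6 lost were all the fall of Ccnd2 in Sf.Il2-/-, and no sign change touched a called difference. In Sf.Il2-/- against Sf the signs turned for Ccnd3 (-0.09 by quantile normalization, -0.16 by the mean of probe sets), Cdk6 (0.20 in array set 1 alone, 0.09 without Sf 3, where leaving out 1 array gave -0.40 to 0.09) and Myc (0 after rounding, without Sf 3, in a range of -0.46 to 0). In Sf against B6 they turned for Pim1 (-0.06 with arrays centred on medians, -0.29 by the mean of probe sets, -0.07 with the replicate block, -0.11 without Sf 3, in a range of -0.11 to 0.08) and Cdkn1b (-0.22 by the mean of probe sets, -0.10 without Sf 3, in a range of -0.10 to 0.22), and in Sf.Il2-/- against B6 for Cdk4 (-0.03 with the replicate block, 0 after rounding without Sf.Il2-/- 1, in a range of 0 to 0.08).

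The number of the 9 genes past the threshold in Sf.Il2-/- against Sf (0) was 1 with the array set as a block and 3 in array set 1 alone. In Sf against B6 (1) it was 2 by quantile normalization, 2 with arrays centred on medians, 4 with the replicate block and 3 with the array set as a block. In Sf.Il2-/- against B6 (1) it was 0 with no filter, 0 without trend, 0 without the arrays with neutrophil transcripts, 3 by quantile normalization and 2 with the array set as a block. Leaving out 1 array gave 0 to 3, 1 to 6 and 0 to 5, each highest without Sf 3, where 7.43%, 30% and 13.1% of all genes passed. Of all genes the replicate block called 0.524%, 16.4% and 10.6% and the array set block 0.646%, 5.28% and 6.29%. Quantile normalization called 0.296%, 4.79% and 6.39%, and array set 1 alone 5.11% in the first comparison, so added calls are not particular to these genes. Of the genes of the lists, 3, 6 and 13 passed in the 3 comparisons. These were 12 in array set 1 alone for the first, and for the second 3 with no filter, 20 by quantile normalization, 27 with the replicate block (16 higher, 11 lower) and 15 with the array set as a block. For the third they were 6 with no filter, 22 by quantile normalization, 7 with a pseudocount of 16, 7 without trend, 8 by the mean of probe sets and 20 with the array set as a block. Leaving out 1 array gave 2 to 15, 2 to 46 and 4 to 29, each highest without Sf 3. The replicate block changed no call of the 9 genes other than those of Ccnd2, Ccnd3 and Cdk6 in Sf against B6. Settings that leave out arrays have fewer degrees of freedom, and the cause of the other changes was not tested.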
